A study of Bos taurus with 14 samples.

Results

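Histone deacetylases take acetyl groups off lysines of histones and of many other proteins, and the classical members of the family need a zinc ion to do so. HDAC4 and HDAC7 are class IIa enzymes, which have little deacetylase activity of their own, move between cytoplasm and nucleus, and repress genes bound by MEF2 factors. In the liver, class IIa enzymes are known to enter the nucleus under glucagon, the hormone of fasting, and to act there with FOXO factors on glucose-producing genes, while HDAC7 is best known from endothelial cells. HDAC6 is a class IIb enzyme of the cytoplasm that deacetylates alpha-tubulin and HSP90. MTA1 and MBD2 are subunits of NuRD, a complex that joins the deacetylases HDAC1 and HDAC2 to an ATP-driven nucleosome remodeller: MTA1 is the scaffold that holds the deacetylase, and MBD2 binds methylated CpG.

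The 5 genes described here are HDAC4 (ENSBTAG00000017764), HDAC6 (ENSBTAG00000013244), HDAC7 (ENSBTAG00000026819), MBD2 (ENSBTAG00000037457) and MTA1 (ENSBTAG00000047606), of 27607 genes in the count table. They were set by name, and all 5 passed the filter on low counts. The study had singled out HDAC4, HDAC6 and HDAC7 because they differed between these same calves, and MBD2 and MTA1 by a regulatory score computed from them, so no test below is independent evidence.

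RNA was sequenced from the livers of 14 female calves at 30 h of age. Their dams were crossbred Angus-based heifers inseminated with semen of 1 bull; 7 were fed a basal diet alone (CON) and 7 the same diet with 113 g per day of a vitamin and mineral premix (VTM), begun 60 days before breeding and kept up until calving. All calves were taken from the dam before suckling and fed the same colostrum and milk replacers, and each calf is 1 library. The comparison asks whether the maternal diet changed the newborn's hepatic gene expression.

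Total counts ranged from 13382264 to 20125409 per library. The study removed CON calf 19 and VTM calf 10 for low alignment, and tests below use the other 12 calves, with all 14 beside them. VTM calf 40 stood apart within the 12, with 15395 genes at 0 counts and 318 genes at 1 to 9 counts, against 10941 to 13397 and 1265 to 3349 in the other 13 libraries. In CON calf 31, 12 mitochondrially encoded protein genes took 18.1% of the counts, against 8.57% in CON calf 25 and 1.89 to 4.31% elsewhere. Results are therefore also given without CON calf 31 and VTM calf 40. Of 9 hepatocyte markers only TTR, the thyroid hormone carrier that hepatocytes secrete, was named in the study's lists of genes that differed or scored. It was at 109.2 to 2228 CPM, the counts scaled to library size, in the 14 livers, and 479.3 ± 268.5 CPM under VTM against 947.7 ± 772.0 CPM under CON (SD, n = 6 per diet), with CON calf 31 highest. Its log2 fold change of -0.99 met the study's rule described below with DESeq2 (unadjusted p = 0.0433) but not with edgeR (unadjusted p = 0.0801), and its part in the results below was not tested.

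HDAC4 was higher and HDAC7 lower in the VTM livers by the study's unadjusted rule, while HDAC6, MTA1 and MBD2 did not meet it with edgeR. With edgeR's quasi-likelihood test over 12 calves, 2 of the 5 genes, HDAC4 and HDAC7, reached the study's rule of an unadjusted p of at most 0.05 with a log2 fold change of 0.5 or more in either direction, a rule met by 3.71% of all 13307 genes tested. DESeq2 added HDAC6, making 3 of 5 against 4.73% of all genes. Over all 14 calves HDAC6 alone met it, against 2.07% of all genes. Without CON calf 31 and VTM calf 40, edgeR put 0 of the 5 past the rule, against 3.03% of all genes, with 1 of them, HDAC7, at an unadjusted p of at most 0.05. The median log2 fold change of the 5, VTM relative to CON, was -0.38, with 1 above 0 and 4 below; over all tested genes it was -0.02, with 47.7% above 0. The adjusted p over all genes in the edgeR test was 0.791 for HDAC4, HDAC6, HDAC7 and MTA1 and 0.916 for MBD2, so none held after correction for multiple tests.

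**Figure D1:**
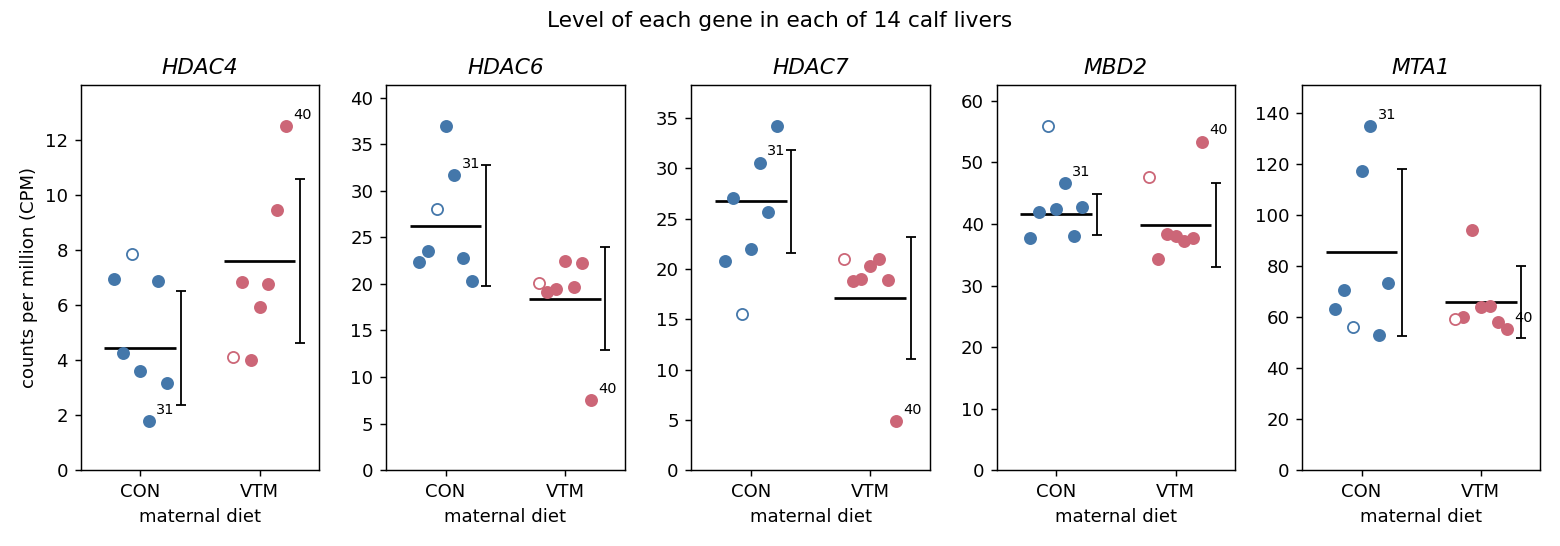
Level (CPM) of the 5 genes in each of 14 calf livers by maternal diet, on axes that start at 0. Filled points are the 12 calves of the tests, open points the 2 calves the study removed, lines the mean and bars the SD of the 6 filled calves; VTM calf 40 lies far below the other VTM calves in HDAC6 (7.54) and HDAC7 (4.89), and CON calf 31 is lowest in HDAC4 (1.78) and highest in MTA1 (134.8).

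HDAC4 had the fewest reads of the 5, from 22 counts in CON calf 31 to 207 in VTM calf 40. Its level in the 7 VTM calves was lowest at 4.01 CPM, with a median of 6.76 and a highest value of 12.5 CPM. In the 7 CON calves the lowest was 1.78, the median 4.24 and the highest 7.83 CPM. The groups overlapped: 3 CON calves lay below every VTM calf and 2 VTM calves above every CON calf, the others being intermixed. Over the 12 calves the level was 7.58 ± 2.97 CPM under VTM against 4.43 ± 2.07 CPM under CON (SD, n = 6 per diet). The log2 fold change was 0.77 (standard error 0.35, edgeR), and a 2-sided exact permutation test over the 6 and 6 calves gave p = 0.0628. The extremes of both groups were the libraries that stood apart, and with CON calf 31 and VTM calf 40 left out the log2 fold change was 0.41 (exact permutation p = 0.230). Over 14 calves the estimate was 0.53 (exact permutation p = 0.150).

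HDAC7, the other class IIa enzyme, went the opposite way. Its lowest VTM value was 4.89 CPM, its median 18.99 and its highest 21.0 CPM, and in CON the lowest was 15.5, the median 25.7 and the highest 34.2 CPM. Apart from VTM calf 40, the VTM livers were nearly uniform: the other 6, the removed calf 10 among them, lay between 18.8 and 21.0 CPM. The coefficient of variation of the 5 tested ones was 5.03%, and counting error alone gives 5.15% at the median count. Of the 7 CON calves, 5 were above every VTM calf; CON calf 1, at 20.7 CPM, lay within the VTM range, and the removed CON calf 19 fell below it apart from calf 40. Over 12 calves the means were 17.1 ± 6.06 CPM under VTM against 26.7 ± 5.09 CPM under CON (SD, n = 6 per diet), the log2 fold change being -0.64 (standard error 0.27, edgeR), with an exact permutation p of 0.00433, where 6 against 6 allows 0.00216 at the least. With VTM calf 40 left out the log2 fold change was -0.45, short of the 0.5 the rule asks for, and edgeR's unadjusted p was 0.00797. With CON calf 31 left out as well it was -0.40 (exact permutation p = 0.0159). Over 14 calves, with CON calf 19 in the control group, it was -0.51 (exact permutation p = 0.0414).

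The ratio of HDAC4 to HDAC7 within each library needs no scaling between libraries. It restates the opposite differences of both genes, which were singled out for them in these calves, and adds no support of its own. HDAC7 had more counts than HDAC4 in 13 of the 14 libraries, VTM calf 40 being the exception. The log2 ratio of HDAC4 to HDAC7 counts was -1.12 ± 1.28 under VTM against -2.71 ± 0.93 under CON (SD, n = 6 per diet), a difference of 1.58 (2-sided exact permutation test, p = 0.0173). Leaving out any 1 of the 12 calves gave differences of 1.09 to 1.81. It was 1.16 over 14 calves (exact permutation p = 0.0816), where CON calf 19 had the highest CON ratio, at -0.98, and VTM calf 10 the lowest VTM ratio, at -2.34. The difference was 0.82 without CON calf 31 and VTM calf 40 (exact permutation p = 0.0635).

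HDAC6 was at 7.54 CPM in VTM calf 40, with a VTM median of 19.6 and a highest value of 22.4 CPM. In CON the lowest was 20.3, the median 23.6 and the highest, in CON calf 25, 36.9 CPM. As in HDAC7, the VTM livers without calf 40 were close together, at 19.2 to 22.4 CPM, and 5 of the 7 CON livers were above all VTM livers. Over 12 calves the means were 18.4 ± 5.51 CPM under VTM against 26.3 ± 6.54 CPM under CON (SD, n = 6 per diet). The log2 fold change was -0.52 (standard error 0.24), with edgeR's unadjusted p at 0.0504, just outside the study's rule; DESeq2 gave 0.0473, just inside it. The exact permutation p was 0.0130 over 12 calves and 0.00408 over 14, with the removed CON calf 19 at 28.03 CPM and the removed VTM calf 10 at 20.1 CPM. The log2 fold change was -0.29 with CON calf 31 and VTM calf 40 left out (exact permutation p = 0.0476).

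MTA1, the NuRD scaffold, had 55.4 CPM in its lowest VTM liver, a median of 60.0 and 94.1 CPM in the highest. The CON livers spanned a wider range, from 53.0 through a median of 70.8 to 134.8 CPM in CON calf 31, with CON calf 25 next at 117.2. All VTM livers lay within the CON range. The means over 12 calves were 66.0 ± 14.2 CPM under VTM against 85.4 ± 32.8 CPM under CON (SD, n = 6 per diet), and the log2 fold change of -0.38 had a 95% interval of -0.87 to 0.12 (edgeR). The exact permutation p was 0.232. Both of the highest CON livers were those with the largest mitochondrial share, and with 1 surrogate variable in the fit the 95% interval was -0.40 to 0.40; the part of RNA quality in these values was not tested.

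MBD2 was the steadiest of the 5. Its standard deviation within diets, 0.18 on the log2 scale, was at percentile 4.42 of all tested genes, against percentiles 46.8 to 67.6 for the other 4 genes. VTM livers had a lowest value of 34.4, a median of 38.1 and a highest of 53.4 CPM, and CON livers of 37.8, 42.5 and 55.9 CPM. The 4 highest of the 14 libraries were CON calf 19, VTM calf 40, VTM calf 10 and CON calf 31, which are the 2 removed libraries and the 2 that stood apart; the other 10 lay between 34.4 and 42.7 CPM. The log2 fold change was -0.07, with a 95% interval of -0.35 to 0.22 (edgeR; exact permutation p = 0.522). Without CON calf 31 and VTM calf 40 the means were 37.1 ± 1.59 CPM under VTM against 40.6 ± 2.48 CPM under CON (SD, n = 5 per diet), a log2 fold change of -0.12 that an exact permutation test put at p = 0.0556.

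**Figure D2:**
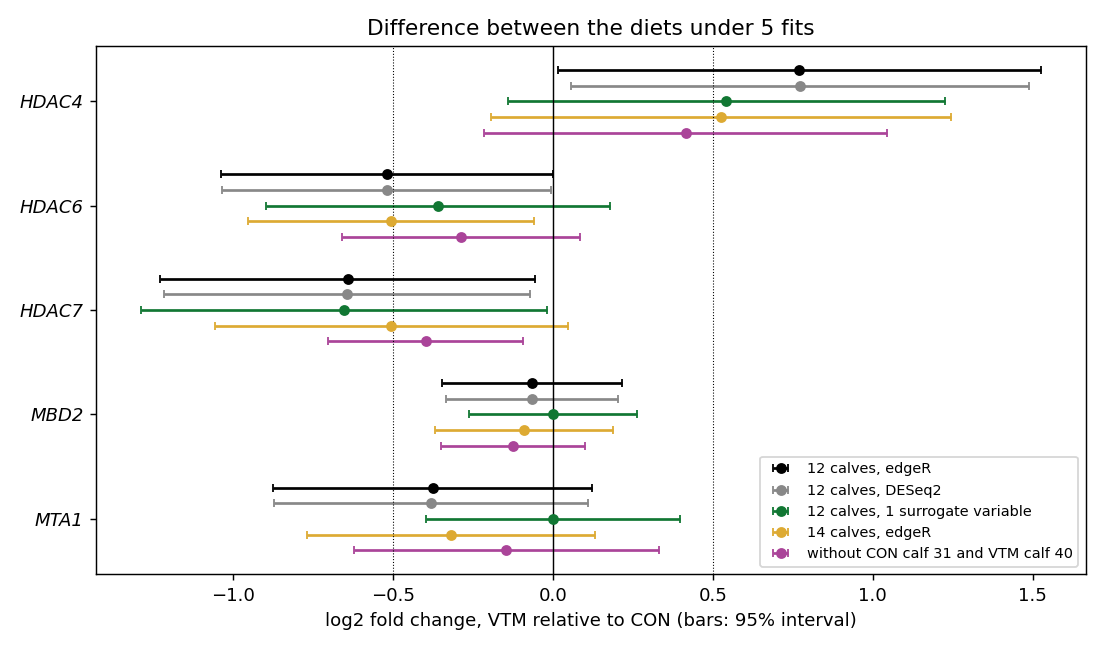
Log2 fold change of each gene, VTM relative to CON, with its 95% interval under 5 fits; dotted lines mark the study's limit of 0.5 in either direction. HDAC4 lies to the right of 0 and HDAC6 and HDAC7 to the left in all 5 fits, and the estimates of these 3 are nearest to 0 without CON calf 31 and VTM calf 40 (0.41, -0.29 and -0.40).

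The 5 genes were next compared with each other across the 12 calves, on log2(CPM + 0.5). Of the 10 pairs, 5 had a Pearson correlation with a permutation p of at most 0.05 (100000 resamples), and 3 had such a Spearman correlation. Large correlations were common among all tested genes in these libraries. For MTA1, the 5th and 95th percentiles of r with the other 13306 genes were -0.85 and 0.83, and for HDAC4 -0.75 and 0.78. They were -0.71 and 0.80 for HDAC6, -0.64 and 0.81 for HDAC7, and -0.76 and 0.66 for MBD2. The share of all gene pairs past 0.05 was not counted. The pair with the lowest p was HDAC4 and MTA1, inversely related with r = -0.84 (permutation p = 0.00025, and 0.0025 after Benjamini-Hochberg adjustment over the 10 pairs) and rho = -0.90 (permutation p = 0.00021, adjusted 0.0021). It was present within CON (r = -0.83, exact permutation p = 0.0431, n = 6) and within VTM (r = -0.86, exact permutation p = 0.00694, n = 6). Without CON calf 31 and VTM calf 40, which are the calves farthest from the median of HDAC4, r was -0.74, and over all 14 calves -0.81. Among the 12 calves, livers with much HDAC4 thus had little MTA1 under both diets. The r of -0.84 was at percentile 1.35 of those of HDAC4 and at percentile 5.96 of those of MTA1, so many other genes were as strongly inverse to MTA1.

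HDAC4 and HDAC7 were also inversely related, with r = -0.73 (permutation p = 0.00625, adjusted 0.0312) and rho = -0.77 (permutation p = 0.00481, adjusted 0.0240). Within the diets r was -0.68 in CON and -0.73 in VTM, neither past 0.05 with 6 calves (exact permutation p = 0.129 and 0.103). Leaving out CON calf 31 and VTM calf 40 gave -0.62 (permutation p = 0.0511). For HDAC4 and HDAC6, r was -0.69 (permutation p = 0.0164, adjusted 0.0411) and rho -0.51 (permutation p = 0.0939, adjusted 0.188), and r was -0.31 without those calves, so that this relation rested on them. HDAC4, HDAC6 and HDAC7 were singled out for differing between the diets, so their pooled values hold the diet difference. With the mean of each diet subtracted, r was -0.60 for HDAC4 and HDAC7 (permutation p = 0.0264). It was -0.55 for HDAC4 and HDAC6 (permutation p = 0.0600) and -0.82 for HDAC4 and MTA1 (permutation p = 0.00099).

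HDAC6 and HDAC7, both lower in VTM, rose and fell together over the 12 calves with r = 0.83 (permutation p = 0.0159, adjusted 0.0411) and rho = 0.63 (permutation p = 0.0321, adjusted 0.107). This relation rested on VTM calf 40, where both genes were lowest. Without that calf r was 0.29, and within CON it was -0.24 (n = 6). With the mean of each diet subtracted and calf 40 kept in, r was 0.76 (permutation p = 0.0289). The r of 0.83 was at percentile 96.4 of those of HDAC6 and 96.1 of those of HDAC7. For HDAC6 and MTA1, r was 0.61 (permutation p = 0.0417, adjusted 0.0835) and rho 0.43 (permutation p = 0.161, adjusted 0.230). This pair had r = 0.86 in CON and 0.32 in VTM, and 0.61 without the calves farthest from the median of HDAC6, VTM calf 40 and CON calf 25. With the mean of each diet subtracted, r of HDAC6 and MTA1 was 0.52 (permutation p = 0.0801). The r of 0.61 over the 12 calves was at percentile 84.2 of those of HDAC6 and 81.8 of those of MTA1.

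MBD2 had a correlation of opposite sign with HDAC7 and HDAC6 once VTM calf 40 was left out. With HDAC7, r was -0.45 over 12 calves (permutation p = 0.129) and 0.76 without that calf, and with HDAC6 it went from -0.34 (permutation p = 0.260) to 0.74. With HDAC4, r was -0.13 over 12 calves (permutation p = 0.676) and -0.80 without CON calf 31 and VTM calf 40 (permutation p = 0.00504), while the diets had opposite signs, with -0.97 within CON (exact permutation p = 0.00833, n = 6) and 0.63 within VTM (exact permutation p = 0.237, n = 6). MBD2 and MTA1 had r = 0.34 over 12 calves (permutation p = 0.283) with 0.90 within CON (exact permutation p = 0.0181, n = 6) and -0.26 within VTM (exact permutation p = 0.469, n = 6). Their r was 0.66 without CON calf 31 and VTM calf 40 (permutation p = 0.0377). HDAC7 and MTA1, at r = 0.38 (permutation p = 0.219), were the pair left. The adjusted values of these 5 pairs were 0.216 or more, and their rho ranged from -0.41 to 0.55, with adjusted values of 0.166 or more.

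**Figure D3:**
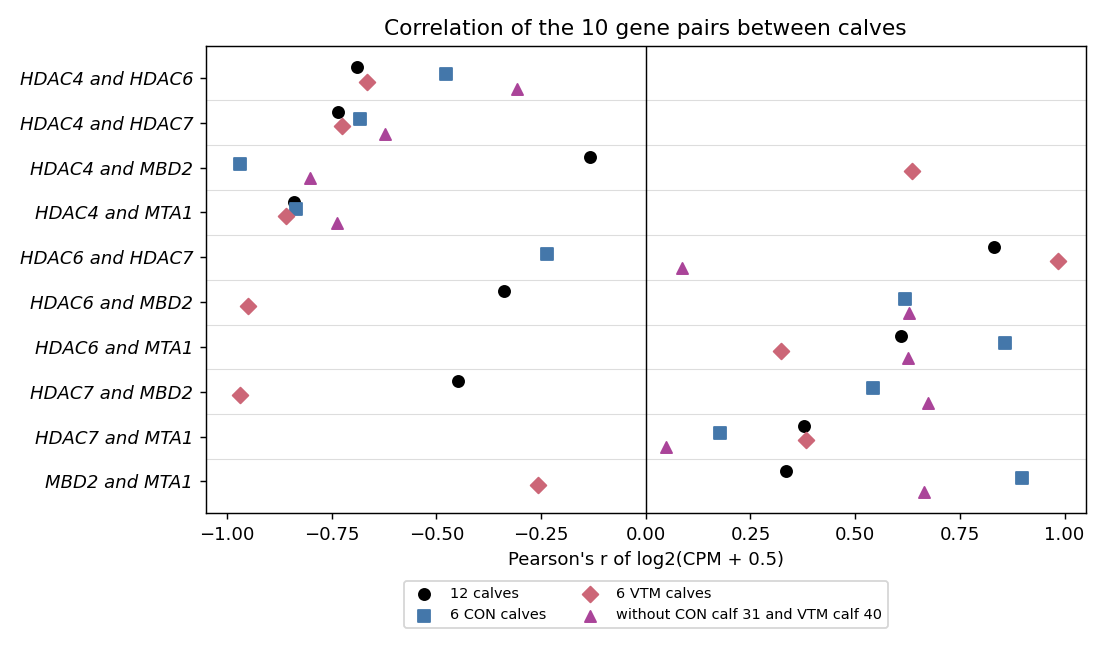
Pearson's r of log2(CPM + 0.5) for the 10 gene pairs over 12 calves, within each diet, and without CON calf 31 and VTM calf 40. The 4 symbols of HDAC4 with MTA1 lie between -0.86 and -0.74, whereas those of HDAC6 with HDAC7 spread from -0.24 to 0.98.

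The levels also moved with measures of the libraries, 3 of which were related to each of the 5 genes, giving 15 relations. MTA1 rose with the log2 share of mitochondrial counts, with r = 0.86 (permutation p = 0.00236, adjusted over the 15 relations 0.0118) and rho = 0.71 (permutation p = 0.0126, adjusted 0.0631), but r was 0.27 without CON calves 31 and 25, so that it rested on them. HDAC4 fell with the same share, with r = -0.70 (permutation p = 0.00968, adjusted 0.0290) and rho = -0.57 (permutation p = 0.0595, adjusted 0.149), and r was -0.23 without these calves. MBD2 rose with the number of genes at 0 counts, with r = 0.88 (permutation p = 0.00122, adjusted 0.00915) and rho = 0.50 (permutation p = 0.103, adjusted 0.220), and r was 0.46 without VTM calf 40 and CON calf 31. For HDAC6 r with this number was -0.47 over 12 calves (permutation p = 0.130) and 0.88 without those calves. For MTA1 it was 0.22 (permutation p = 0.513) and 0.76. Within CON r was 0.86 for HDAC6 and 0.91 for MTA1, and within VTM -0.99 and -0.35 (n = 6 each). HDAC7 had -0.69 (permutation p = 0.0696) and -0.09, and HDAC4 0.12 (permutation p = 0.706) and -0.36.

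HDAC7 was set beside endothelial genes, since endothelium is where it is best known. Identifiers were at hand for 3 of 12 endothelial markers: STAB1, a scavenger receptor of sinusoids, EGFL7, a secreted vascular protein, and ENG, a coreceptor of TGF-beta. The study had listed them because they differed between the diets. Names came only from its lists of genes that differed or scored, so these 3 do not stand for all 12. All 3 met its rule with edgeR over 12 calves, each lower in VTM (median log2 fold change -0.66), and none met it without CON calf 31 and VTM calf 40. ENG then fell just short of the 0.5 limit, at -0.4996 (edgeR, unadjusted p = 0.00927). Over 14 calves STAB1 (-0.59) and ENG (-0.51) met the rule, and EGFL7 (-0.66, edgeR, unadjusted p = 0.0670) did not. Their summed level was 295 to 343 CPM in the 7 VTM livers and 277 to 834 CPM in the 7 CON livers. HDAC7 followed this sum by rank over the 12 calves, with rho = 0.91 (permutation p = 0.00011, adjusted 0.00165) and r = 0.50 (permutation p = 0.101, adjusted 0.169), and r was 0.61 without CON calves 31 and 25. Within the diets r was 0.44 in CON and 0.30 in VTM (n = 6 each), and since HDAC7 and the 3 genes were all listed for being lower in VTM, the pooled values hold the diet difference. In whole liver, fewer cells of a type and less RNA per cell cannot be told apart. VTM calf 40 left the relation: its endothelial sum, 303 CPM, was in the VTM range, while its HDAC7 was at 4.89 CPM. HDAC4 fell with the same sum, with r = -0.83 (permutation p = 0.00045, adjusted 0.00675) and rho = -0.72 (permutation p = 0.0109, adjusted 0.0631), and r was -0.69 without CON calves 31 and 25; within CON it was -0.93 and within VTM -0.24 (n = 6 each). MTA1 rose with it (r = 0.81, permutation p = 0.0048, adjusted 0.0180; rho = 0.57, permutation p = 0.0560, adjusted 0.149), but r was 0.16 without those calves. HDAC6 had r = 0.61 with the sum (permutation p = 0.0607, adjusted 0.145) and rho = 0.69 (permutation p = 0.0171, adjusted 0.0642), and r was 0.29 without those calves. MBD2 had r = 0.44 (permutation p = 0.148, adjusted 0.202), with 0.93 within CON and -0.28 within VTM (n = 6 each). The part of cell composition in the diet differences was not tested.

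**Figure D4:**
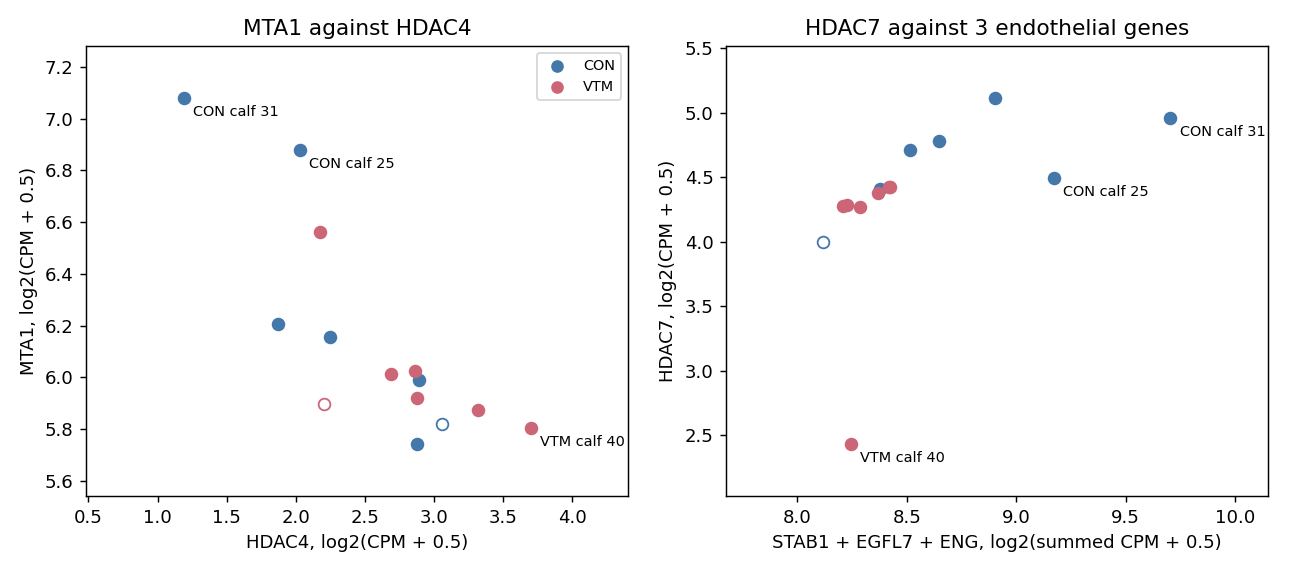
Left, MTA1 against HDAC4, and right, HDAC7 against the summed level of STAB1, EGFL7 and ENG, each as log2(CPM + 0.5), 1 point per calf; open points are the 2 calves the study removed. Among the 12 tested calves MTA1 falls as HDAC4 rises under both diets, but the removed VTM calf 10 is low in both (HDAC4 4.10 and MTA1 59.1 CPM). HDAC7 rises with the endothelial genes except in VTM calf 40 and, at the upper end, CON calves 25 and 31.

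The genes most like each of the 5 were sought among 622 tested genes with a symbol in the study's tables, by Pearson's r of log2(CPM + 0.5) over the 12 calves. They were picked for their r, all share the depth and composition of the same libraries, and no test is given. Among the genes most like HDAC4 were TRAK2, an adaptor for mitochondrial transport (r = 0.92), and ATP9A, a membrane flippase family member (r = 0.90), and without CON calf 31 and VTM calf 40 these were 0.85 and 0.89. HDAC7 was most like P3H4, which acts in collagen modification (r = 0.98), FLI1, an ETS transcription factor of endothelial and blood cells (r = 0.97), and FAM171A2 (r = 0.96), with 0.92, 0.83 and 0.92 without these calves. FLI1 was at 7.30 ± 2.77 CPM under VTM against 12.5 ± 1.87 CPM under CON (SD, n = 6 per diet), and at 1.93 CPM in VTM calf 40. HDAC6 was most like KCNJ2, a potassium channel (r = 0.98), which no other tested gene exceeded, and then CLEC11A and CLCF1 (r = 0.97 and 0.95), both secreted factors. Without the same calves these r were 0.97, 0.85 and 0.83. In VTM calf 40, KCNJ2 was at 0.060 CPM and CLEC11A and CLCF1 at 0 CPM. KCNJ2 and CLCF1 were low in all livers, with medians of 1.24 and 1.35 CPM in the VTM and 1.59 and 1.69 CPM in the CON calves.

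MTA1 was most like CROCC, the ciliary rootlet protein (r = 0.96), INF2, an actin-assembling formin (r = 0.95), and RPS27L, a paralog of a ribosomal protein (r = 0.94), and each was 0.90 to 0.92 without CON calf 31 and VTM calf 40. MBD2 was most like the zinc finger genes ZNF696 (r = 0.86) and ZFP62 (r = 0.84) and the homeobox gene SIX5 (r = 0.82). These fell to 0.37, 0.47 and 0.53 without those calves, the largest drop among the 5 genes. In VTM calf 40, where MBD2 was at 53.4 CPM, ZNF696 was at 11.2, ZFP62 at 10.8 and SIX5 at 24.4 CPM, the highest of the VTM livers in each.

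Other genes of the same machinery were named in the study's tables in few cases, and each was there because it had differed or scored in these calves. Of 13 other NuRD subunits, CHD3 was the 1 with an identifier. CHD3, an ATPase of the remodeller, was at 66.1 ± 15.4 CPM under VTM against 43.3 ± 15.003 CPM under CON (SD, n = 6 per diet), the log2 fold change being 0.61 (standard error 0.25, edgeR; exact permutation p = 0.0173), which met the study's rule, with CON calf 31 lowest at 17.0 CPM. It did not meet it over 14 calves, at 0.32, or without CON calf 31 and VTM calf 40, at 0.44. CHD3 was thus higher in VTM over the 12 calves, while MTA1 and MBD2, subunits of the same complex, had estimates below 0. Of 19 class IIa partners, RFXANK, an ankyrin-repeat protein that binds class IIa deacetylases, was the 1 with an identifier, at 15.8 ± 4.36 CPM under VTM against 25.4 ± 10.96 CPM under CON (SD, n = 6 per diet), the log2 fold change being -0.69 (standard error 0.28, edgeR; exact permutation p = 0.0736). It met the rule as well, but neither over 14 calves (-0.56) nor without CON calf 31 and VTM calf 40 (-0.42).

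Of 17 partners and substrates of HDAC6, HSF1, the heat shock factor, was the 1 with an identifier, and of 16 methyl-CpG proteins and DNA methylation enzymes it was SETDB2, a histone methyltransferase with a methyl-CpG-binding domain. HSF1 had a log2 fold change of -0.28 (exact permutation p = 0.240) and SETDB2 of 0.43 (exact permutation p = 0.478), and neither met the rule with edgeR or DESeq2. SETDB2 was at 0.543 CPM in VTM calf 40 and 0.647 CPM in CON calf 31, the lowest of their groups. The 8 other deacetylases HDAC1 to HDAC11, 7 sirtuins, 20 subunits of other deacetylase complexes and 13 histone acetyltransferases had no name paired with an identifier and were not analysed here. Since names came only from the study's lists of genes that differed or scored, the named genes do not stand for their families.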

How the data were processed

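RNA from 14 calf livers was sequenced as strand-specific libraries. The authors removed adapters and reads of low quality, mapped the rest to the ARS-UCD1.2 assembly with STAR 2.7.5, and deposited unnormalized counts for each Ensembl gene and calf. Which strand column was counted is not given in the sources used here, so overlapping genes are uncertain.

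Groups follow the titles. Counts were fitted over all genes by the quasi-likelihood test of edgeR 4.0.16 after filterByExpr and TMM scaling, with diet as the only term and Benjamini-Hochberg adjustment, in R 4.3.3, after a check on simulated counts; standard errors and 95% intervals were derived from its F statistic. DESeq2 1.42.0 and sva 3.50.0 served for alternatives. CPM in the text were scaled over all 14 libraries, while permutation tests and correlations of 12 calves used factors from those 12 and added 0.5 CPM before the log (Python 3.11.15, numpy 2.4.6, scipy 1.17.1). No 2 libraries of a group agreed within sampling noise. Transcript lengths were not used here, so a higher count, as of HDAC7 over HDAC4, is not by itself a higher level.

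The 5 genes, the lists, the rule for named genes (the 5, the listed partners, and the 3 most correlated genes of each) and the alternatives were chosen with earlier results of these data known. For HDAC4, 1 of the 3 is not reported here. Names came from the study's supplementary tables, which pair symbols with identifiers; their own fold changes, p-values and scores were not used. For lack of identifiers, macrophage, erythroid, lymphocyte and neutrophil markers were not analysed here.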

Additional observations from a re-analysis of the deposited data

Results flagged for a closer look

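A calf was looked at again where its gap to the nearest calf of its group, as a share of the whole range on the log2 scale, was above Dixon's 95% critical value (0.625 for 6 calves and 0.568 for 7). This was asked of the 5 genes and of the HDAC4 to HDAC7 ratio in 24 groups, of which chance alone flags about 1 in 20, and 9 were found, all in the VTM group. VTM calf 40 was low in HDAC7 (0.926 of the range among 6 VTM calves and 0.921 among 7) and in HDAC6 (0.871 and 0.854). It was high in MBD2 among the 6 calves (0.759), and high in the HDAC4 to HDAC7 ratio (0.655 and 0.636). VTM calf 22 was high in MTA1, at 94.1 CPM (0.733 and 0.711). The counts behind VTM calf 40 were 81 for HDAC7, 125 for HDAC6 and 885 for MBD2, and its number of genes at 0 counts was the highest of the 14 libraries; the part of that library's make-up in these values was not tested.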

How the results depend on the processing

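The number of genes that met the study's rule, 494, was 1003 with no filter but a count above 0, 303 with 1 surrogate variable and 275 over 14 calves, and from 286 (without CON calf 31) to 1039 (without CON calf 37) with 1 calf left out, with 305 without CON calf 25 and 743 without CON calf 1. HDAC4 no longer met it over 14 calves (0.53), with 1 surrogate variable (0.54) or without CON calf 31 and VTM calf 40 (0.41), and its log2 fold change was 0.57 to 0.94 with 1 calf left out, meeting the rule in 4 of 12 fits (without CON calf 1 or 37 or VTM calf 22 or 28). HDAC7 no longer met it over 14 calves (-0.51, unadjusted p above 0.05) or without both calves (-0.40), and was -0.71 to -0.45 with 1 left out, meeting it in 8 of 12 (not without CON calf 7, 13 or 31 or VTM calf 40). HDAC6 met it with DESeq2 (-0.52), with at least 10 counts in every library (-0.51), with no filter (-0.51) and over 14 calves (-0.51), and in 5 of 12 fits with 1 calf left out (-0.58 to -0.36). MTA1 (-0.50 to -0.20) and MBD2 (-0.17 to -0.03) met it in none of these 12. MTA1 missed only the 0.5 limit without CON calf 37 (-0.483, edgeR, unadjusted p = 0.0484) and without VTM calf 22 (-0.498, edgeR, unadjusted p = 0.0494). The sign of MBD2 turned with 1 surrogate variable, to 0.0006. The HDAC4 to HDAC7 ratio no longer passed over 14 calves (1.16) or without both calves (0.82, an alternative chosen after seeing the data, as for the pairs), and was 1.09 to 1.81 with 1 left out. Correlated pairs numbered 3 by Spearman's rho, 4 with the mean of each diet subtracted and 4 to 7 with 1 calf left out. They numbered 5 without both calves as well, but the pairs differed. HDAC4 with MTA1 was the only pair kept, and the others all held MBD2 (permutation p = 0.00504 to 0.0377). The cause was not tested in any case. RLE and upper-quartile scaling in place of TMM changed no call among the 5. No paired analysis was possible because no CON and VTM calf share a number. HDAC4 had 22 to 207 counts. Counting error alone gives 9.41% at its median count, against coefficients of variation of 39.2% under VTM and 46.9% under CON over 12 calves. Intervals cover these calves only.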

Other observations

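Markers of other liver cells that the study's tables name were each listed there because they differed or scored in these calves, so they do not stand for the whole lists. Of 10 stellate and mesenchymal genes, 6 had an identifier and all 6 met the study's rule with edgeR: VIM, DCN, COL1A1, COL1A2 and COL3A1 were lower in VTM and LRAT, which stores retinol as its ester, was higher, with a median log2 fold change of -0.85. Of 4 cholangiocyte markers, 3 had an identifier; the keratin genes KRT7 and KRT19 met the rule, at -0.92 and -0.64, and SOX9, at 0.54, did not. In VTM calf 40, VIM was at 175 CPM and DCN at 150 CPM, near the VTM means, whereas SOX9 had 0 counts. KRT19 no longer met the rule without CON calf 31 and VTM calf 40, and neither keratin gene met it over 14 calves.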
